A study of Mus musculus with 9 samples.

Results

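The 8 genes described here, Fgf5, Otx2, Pou3f1, Sox3, Sall2, Zic2, Pim2 and Foxd3, are genes of the formative and primed epiblast. They were taken by name, not by any measured value, as every probe set whose only platform gene symbol is 1 of the 8. That gave 11 probe sets of the 45101 on the array: 2 each for Fgf5, Pou3f1 and Sox3, and 1 for each of the other genes. All 11 passed the filter on low signals that left 29811 probe sets for testing. Where a gene has a second probe set, the one with the higher mean signal stands for the gene below.

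The cells were D3-pOct4 mouse embryonic stem cells, a cultured line, kept for 7 days in serum-containing medium in 3 conditions. The groups were cells without LIF that received 2 µM DETA/NO (a slow donor of nitric oxide), cells without LIF and with nothing added, and cells with 1000 U/ml of LIF (leukemia inhibitory factor, the cytokine that holds mouse embryonic stem cells undifferentiated by way of STAT3). Each group has 3 Affymetrix Mouse Genome 430 2.0 arrays, numbered as replicates 1, 2 and 3, which are passages 31, 33 and 34. All groups share the line and the medium, and the labels do not say how far the cultures of a passage were kept apart, so p-values speak only of the spread among these 9 arrays.

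Embryonic stem cells in the naive state correspond to the epiblast before implantation and use factors such as Klf4, Esrrb and Tbx3. When they leave that state they pass through a formative state, in which the naive factors are lost and Otx2 and Pou3f1 come on, and reach a primed state like the epiblast after implantation, marked by Fgf5. LIF, through STAT3, sustains the naive factors, so its withdrawal is a usual way to let cells leave the naive state.

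Signals were read as deposited, in linear scaled MAS5 units. Array medians were 13.9 to 23.3, with LIF replicate 1 and DETA/NO replicates 1 and 2 the highest, at 20.8 to 23.3. Socs3, a direct STAT3 target, read 95.8, 405.3 and 126.8 with DETA/NO, 102.1, 3054 and 329.8 without LIF, and 3213, 282.0 and 1794 with LIF. The arrays labelled no LIF replicate 2 and LIF replicate 2 thus go against their labels for Socs3. All arrays are used as labelled, and results that rest on these 2 are given with and without them. The arrays of no LIF replicate 1 and DETA/NO replicate 3 had close signals for most genes named here, although their groups and passages differ. On them Klf4 read 197.1 and 233.3, and Pou5f1 read 3211 and 3044. These 2 arrays are called the alike pair, and no measure of their likeness over all probe sets is given. The 7 embryonic stem cell markers examined, among them Pou5f1, Sox2 and Nanog, lay above the array median on all 9 arrays.

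Promoter sequences (250 bases before to 50 bases after the annotated start) were held for 5 of the 8 genes in the RefSeq table of build GRCm38.p6. Pou3f1, Sox3 and Zic2 are named only. The promoters of Fgf5 and Pim2 are shown as examples. Both genes followed the loss of the naive factors closely, as described below, and each holds 1 of the motifs searched. Sall2, which also passed by Pearson's r, has promoter windows that are not shown. Fgf5 lies at chr5:98253934-98254233 and Pim2 at chrX:7878056-7878355, both on the plus strand. Capitals mark the matches found.
Fgf5: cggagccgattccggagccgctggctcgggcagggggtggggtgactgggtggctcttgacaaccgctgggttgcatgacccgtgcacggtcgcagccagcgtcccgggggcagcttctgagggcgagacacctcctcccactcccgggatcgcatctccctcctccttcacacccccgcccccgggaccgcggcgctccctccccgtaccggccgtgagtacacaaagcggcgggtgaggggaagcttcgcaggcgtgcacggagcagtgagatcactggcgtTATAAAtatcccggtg
Pim2: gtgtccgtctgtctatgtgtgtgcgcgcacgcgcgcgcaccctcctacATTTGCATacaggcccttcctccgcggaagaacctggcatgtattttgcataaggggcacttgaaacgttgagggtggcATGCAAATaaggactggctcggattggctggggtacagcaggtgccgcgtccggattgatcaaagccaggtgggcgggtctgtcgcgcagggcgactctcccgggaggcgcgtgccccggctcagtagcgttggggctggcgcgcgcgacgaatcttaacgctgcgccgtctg

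In Pim2 the capitals are the octamer, the sequence bound by POU factors such as Pou5f1 and Pou3f1. It occurs as ATTTGCAT at position -202 and as ATGCAAAT, its other strand, at position -123 from the annotated start. Of 32817 RefSeq promoters of the same length, 1.74% hold the octamer on either strand. In Fgf5 the capitals are the letters TATAAA, searched for as the TATA box. These letters begin 34 bases after the annotated start, not before it, and 13.6% of promoters hold them. The other motifs searched on both strands were ATTGTT for SOX factors, TAATCC for OTX factors, TTCNNNGAA for STAT factors and CACGTG, the E-box. They occur in 10.7%, 7.06%, 8.29% and 7.15% of promoters and were not in these 2 windows. Windows not shown held matches too: TATAAA in Sall2 and Otx2, the OTX and STAT motifs in Otx2, and the E-box in Foxd3. The marked matches do not overlap each other. The windows are 68.3% (Fgf5) and 62.7% (Pim2) G and C, against a median of 52.7% over all promoters. A match is a description of the letters, not evidence of binding.

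Fgf5, a secreted growth factor and the usual marker gene for primed cells, read 44.1, 82.6 and 567.2 with DETA/NO, 521.0, 0.576 and 19.1 without LIF, and 0.888, 56.6 and 0.710 with LIF. It was far below the array median on LIF replicates 1 and 3 and on no LIF replicate 2, and far above it on the alike pair. The order of the 3 lowest values means little, since all lie under 1. Group means were 231.3 ± 291.5 with DETA/NO, 180.2 ± 295.2 without LIF and 19.4 ± 32.2 with LIF (SD, n = 3 each), so in each group the SD exceeded the mean. The second Fgf5 probe set read 16.9, 14.0 and 113.9 with DETA/NO, 152.0, 0.861 and 10.4 without LIF, and 1.12, 7.74 and 0.517 with LIF. The same arrays were high and low on it, and the probe sets correlated over the 9 arrays at r = 0.963 (exact permutation p = 6.448e-04; Spearman rho = 0.883, exact permutation p = 0.003075).

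Otx2, a homeodomain factor that drives the step into the formative state and later forms the forebrain, read 625.6, 205.4 and 557.2 with DETA/NO, 605.6, 77.5 and 292.0 without LIF, and 217.4, 198.7 and 142.3 with LIF. Its highest signal was on DETA/NO replicate 1, an array with high Klf4, and its lowest on no LIF replicate 2. Means were 462.7 ± 225.5, 325.0 ± 265.6 and 186.2 ± 39.1 in the same order of groups (SD, n = 3 each).

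Pou3f1, also called Oct6, a POU factor of the epiblast and of neural fate, read 83.8, 266.2 and 528.3 with DETA/NO, 581.0, 31.3 and 147.1 without LIF, and 34.5, 133.1 and 37.4 with LIF. The alike pair held the 2 highest signals, and the 3 lowest were on no LIF replicate 2 and LIF replicates 1 and 3. Its second probe set ordered the arrays much the same way (r = 0.949, exact permutation p = 6.063e-05; rho = 0.95, exact permutation p = 3.527e-04). Means were 292.8 ± 223.5 with DETA/NO, 253.1 ± 289.8 without LIF and 68.3 ± 56.1 with LIF (SD, n = 3 each).

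Zic2, a zinc finger factor that works at enhancers in stem cells and the neural plate, read 38.3, 47.4 and 50.7 with DETA/NO, 59.6, 3.96 and 17.9 without LIF, and 14.9, 38.7 and 13.4 with LIF. The DETA/NO arrays lay close together, at 45.5 ± 6.41 (SD, n = 3), while the arrays without LIF spanned the whole range of the gene.

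Sox3, an X-linked SoxB1 factor of the epiblast and the neural plate, read 39.8, 53.7 and 85.9 with DETA/NO, 82.0, 56.6 and 44.0 without LIF, and 32.7, 30.9 and 25.2 with LIF. The 3 LIF arrays were the 3 lowest, and no array of the other groups reached down to them. The second Sox3 probe set was above the array median on only 1 array, read 4.45 to 21.1 and did not follow the first (r = 0.050, exact permutation p = 0.894; rho = 0.017, exact permutation p = 0.982). What is said of Sox3 thus rests on 1 of its 2 probe sets.

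Sall2, a zinc finger factor of the spalt family, read 61.0, 77.9 and 116.6 with DETA/NO, 103.3, 13.7 and 84.3 without LIF, and 15.5, 57.9 and 12.9 with LIF. Every DETA/NO array lay above every LIF array, while no LIF replicate 2 lay among the lowest.

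Pim2, a serine/threonine kinase that promotes survival and growth, read 157.4, 757.8 and 1393 with DETA/NO, 1500, 83.8 and 430.2 without LIF, and 74.3, 564.4 and 84.8 with LIF. Its arrays had the same extremes as those of Pou3f1: the alike pair at the top, and no LIF replicate 2 with LIF replicates 1 and 3 at the bottom. Means were 769.5 ± 618.1, 671.3 ± 738.3 and 241.2 ± 280.0 in the same order of groups (SD, n = 3 each).

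Foxd3, a forkhead repressor needed to maintain the epiblast and active around the exit from the naive state, read 88.2, 57.4 and 56.7 with DETA/NO, 78.0, 59.8 and 21.5 without LIF, and 130.5, 52.6 and 65.8 with LIF. It was the 1 gene of the 8 with its highest signal on a LIF array and its lowest on no LIF replicate 3. All 3 groups overlapped.

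**Figure D1:**
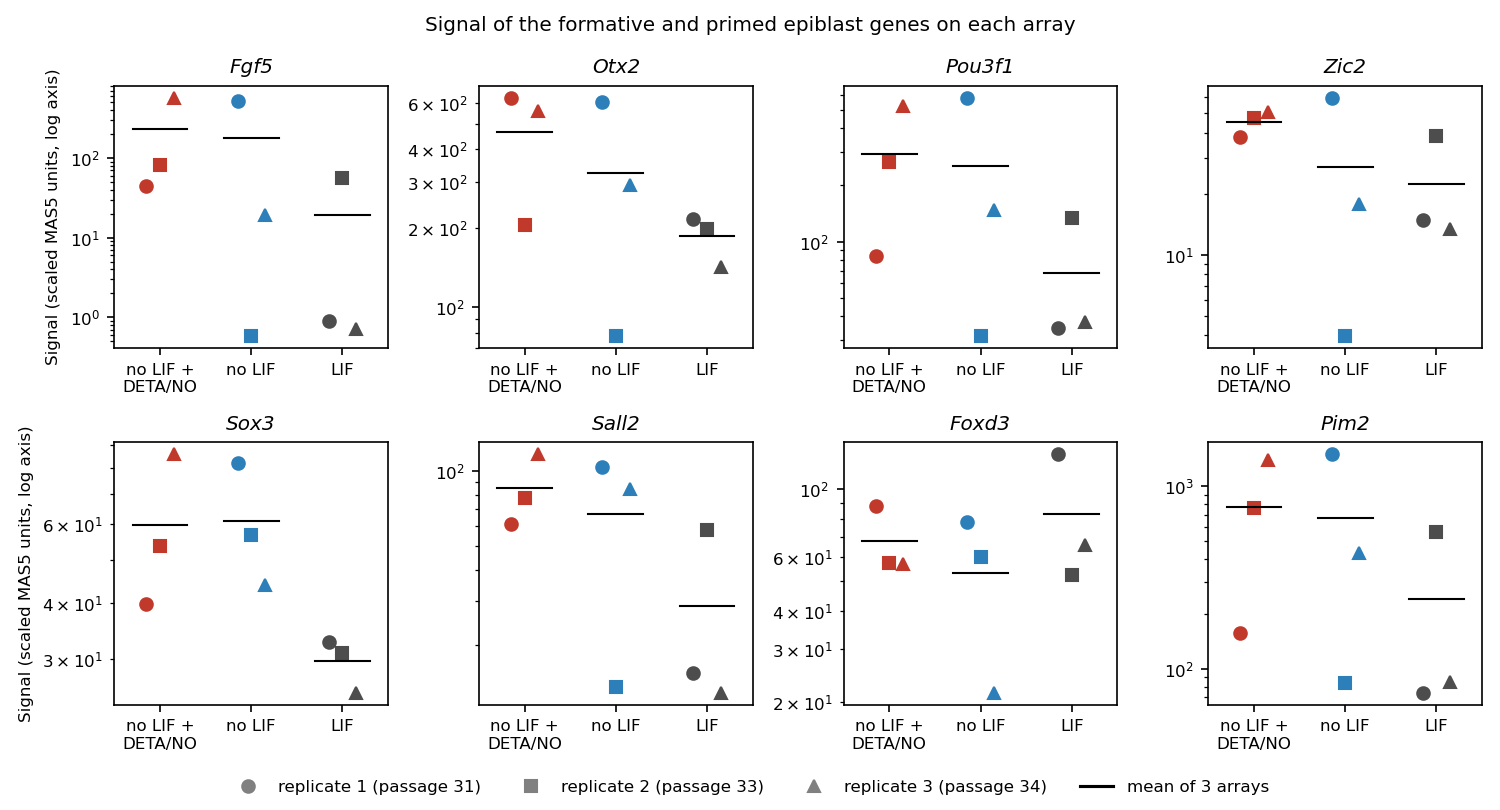
Scaled MAS5 signal (log axis, a separate scale for each gene) of the 8 genes on the 9 arrays, by group, with a marker shape for each replicate number and a line at the mean of 3 arrays. Sox3 on the LIF arrays lies below all other arrays, and the arrays without LIF span nearly the full range of Fgf5, Pou3f1, Pim2 and Zic2.

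By group mean, Fgf5, Otx2, Pou3f1, Sall2, Zic2 and Pim2 had the order DETA/NO, no LIF, LIF from high to low. The second Fgf5 probe set had another order, with 48.3 ± 56.8 with DETA/NO, 54.4 ± 84.7 without LIF and 3.12 ± 4.01 with LIF (SD, n = 3 each). Sox3 averaged 59.8 ± 23.7 with DETA/NO, 60.9 ± 19.4 without LIF and 29.6 ± 3.91 with LIF. Foxd3 averaged 67.5 ± 18.0 with DETA/NO, 53.1 ± 28.8 without LIF and 83.0 ± 41.7 with LIF (SD, n = 3 each, for both genes). Neighbours in these orders differed by less than the larger of their SDs, except Sox3 with DETA/NO against LIF. In bulk RNA, fewer cells of a type and less RNA per cell cannot be told apart.

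The first question is how these genes stand after 7 days of culture without LIF. Of the 8 genes, 0 passed the test after adjustment, as did 0.0% of all 29811 probe sets (limma, Benjamini-Hochberg). Without LIF 6 of the 8 were higher, with a median difference of 0.98 on the scale of log2(signal + 3), where 50.45% of 13357 genes were higher with a median of 0.01. Sox3 was the 1 gene with an unadjusted p under 0.05, which 1.54% of probe sets had. It was also the 1 gene whose groups did not overlap, as was so for 7.6% of probe sets. Its signal was 44.0 to 82.0 without LIF and 25.2 to 32.7 with LIF, higher in 3 of 3 passages as were 6.74% of probe sets, and the log2 difference was 0.93 (SE 0.41, adjusted p = 0.973 in limma). The second Sox3 probe set stood at 0.04 (SE 0.56).

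Fgf5 differed by 1.86 (SE 1.70), Pou3f1 by 1.29 (SE 0.99), Pim2 by 1.29 (SE 1.12), Sall2 by 1.04 (SE 0.74) and Otx2 by 0.39 (SE 0.68) on the log2 scale. Zic2 stood at -0.14 (SE 0.71) and Foxd3 at -0.68 (SE 0.52). Their limma adjusted p was 0.973, and 0.987 for Zic2. These differences had 2 signs within passages. For Fgf5 the log2 difference at passages 31, 33 and 34 was 7.07, -4.06 and 2.58, and for Pim2 it was 4.28, -2.71 and 2.30. Pou3f1, Sall2, Otx2 and Zic2 had the same pattern of signs, negative at passage 33 and positive at the other 2. Passage 33 is that of the 2 arrays whose Socs3 goes against their labels. Without these 2 arrays the median of the 8 genes was 1.87, with Fgf5 at 4.83 (SE 1.46) and Sall2 at 2.49 (SE 0.51), and 0 probe sets passed (adjusted p = 0.553 and 0.526 in limma). Without the alike pair the median was 0.09, with Fgf5 at -0.10 and Otx2 at -0.27. The same median was had without no LIF replicate 1 alone, and without no LIF replicate 2 alone it was 1.53.

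The second question is what DETA/NO adds in cells without LIF. Of the 8 genes, 0 passed, as did 0.0% of probe sets, and 0 had an unadjusted p under 0.05, which 5.02% of probe sets had. The groups overlapped for all 8 genes, while 8.92% of probe sets had groups that did not. With DETA/NO 7 of the 8 were higher, with a median log2 difference of 0.67, where 47.6% of all genes were higher with a median of -0.025. Fgf5 stood at 1.93 (SE 1.70), Zic2 at 1.21 (SE 0.71), Otx2 at 0.78 (SE 0.68), Pou3f1 at 0.68 (SE 0.99), Sall2 at 0.67 (SE 0.74), Pim2 at 0.53 (SE 1.12) and Foxd3 at 0.47 (SE 0.52). The second Fgf5 probe set stood at 0.77 (SE 1.20). Sox3 stood at -0.05 (SE 0.41), with means of 59.8 with DETA/NO and 60.9 without it. Limma adjusted p was 0.930 to 0.993 over the 8 genes.

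Otx2 was the 1 gene of the 8 that was higher with DETA/NO in 3 of 3 passages, by 0.05, 1.37 and 0.93, and 13.9% of probe sets were so too. The others had both signs. Fgf5 stood at -3.48, 4.58 and 4.69 at passages 31, 33 and 34, and Pou3f1 at -2.75, 2.97 and 1.82. Passage 31 sets DETA/NO replicate 1 against no LIF replicate 1, an array of the alike pair. Without no LIF replicate 2 the median of the 8 genes was -0.05 in place of 0.67, with Pim2 at -0.54 and Pou3f1 at -0.35. It was 1.48 without no LIF replicate 1, 1.10 without DETA/NO replicate 1 and 1.01 without the alike pair.

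The third comparison sets DETA/NO without LIF against LIF, and so shares its arrays with both others. Of the 8 genes 0 passed the limma test after adjustment, as did 0.0% of probe sets. With DETA/NO 7 of the 8 were higher, with a median log2 difference of 1.44, where 49.1% of all genes were higher with a median of -0.01. These 7 were each higher in 3 of 3 passages, as were 10.4% of probe sets, though the passage number did not pair the arrays. Fgf5 and Sall2 had an unadjusted p under 0.05, as did 1.94% of probe sets. Sall2 and Sox3 had groups that did not overlap, as did 5.98% of probe sets. The second probe sets of Pou3f1, at 2.15 (SE 0.835), and Fgf5, at 2.66 (SE 1.20), also had an unadjusted p under 0.05. The groups did not overlap on that of Fgf5. On the second Sox3 probe set they overlapped, with a difference of 0.31 (SE 0.56) and -0.38 at passage 34.

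Fgf5 differed by 3.79 (SE 1.70; limma adjusted p = 0.9997), with within-passage values of 3.60, 0.52 and 7.26. Sall2 read 61.0 to 116.6 with DETA/NO and 12.9 to 57.9 with LIF, which is 1.70 on the log2 scale (SE 0.74, adjusted p = 0.9997 in limma). Sox3 read 39.8 to 85.9 with DETA/NO and 25.2 to 32.7 with LIF, which is 0.89 on the log2 scale (SE 0.41, adjusted p = 0.9997 in limma). Pou3f1 stood at 1.97 (SE 0.99), Pim2 at 1.82 (SE 1.12), Otx2 at 1.17 (SE 0.68) and Zic2 at 1.06 (SE 0.71). Foxd3 stood at -0.21 (SE 0.52). Of the 7 genes that were higher, 6 had their smallest difference at passage 33, and Sox3 had its smallest at passage 31. Without LIF replicate 2 and no LIF replicate 2 the median of the 8 genes was 1.90, and Fgf5 stood at 5.12 (SE 1.33).

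**Figure D2:**
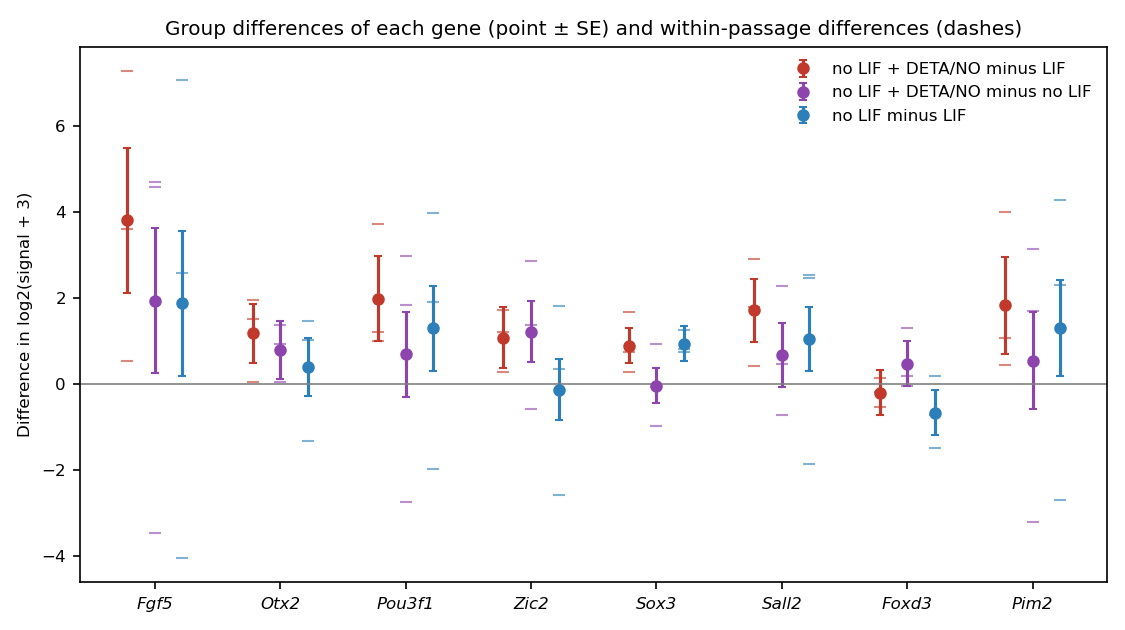
Difference in log2(signal + 3) of each gene in the 3 comparisons (points, with bars of 1 SE from the fit over 9 arrays), and the same difference within each of the 3 passages (dashes). Fgf5, Pou3f1 and Pim2 have dashes on both sides of 0 in both comparisons with the cells without LIF, while against LIF the DETA/NO cells are higher in 3 of 3 passages for all genes but Foxd3.

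The order in which the genes stood as the naive factors fell was read along a naive index. The index is the mean of log2(signal + 3) over 12 naive genes on an array, each by its brightest probe set. It was 9.90 on LIF replicate 1, 9.81 on no LIF replicate 2, 9.38 on DETA/NO replicate 1, 9.30 on LIF replicate 3, 8.66 on LIF replicate 2, 8.53 on no LIF replicate 3, 8.30 on DETA/NO replicate 2, 7.60 on DETA/NO replicate 3 and 7.46 on no LIF replicate 1. Of the 12 naive genes, 2 were higher without LIF than with it, 5 were higher with DETA/NO than without LIF and 0 were higher with DETA/NO than with LIF, with medians of -0.63, -0.27 and -0.69 on the log2 scale and 0 called. The groups overlapped along the index, and the order of arrays is not the order of the groups. The LIF arrays lay at 8.66 to 9.90, and all arrays of lower index were from cells without LIF. The other groups spanned more of the index, at 7.46 to 9.81 without LIF and 7.60 to 9.38 with DETA/NO. The arrays were spread along it, with 0.70 as the largest gap (before the alike pair) and 0.63 as the next.

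Klf4, a core naive factor, read 2482, 2542, 1368, 1863, 1062, 698.1, 625.1, 233.3 and 197.1 in that order of arrays. Esrrb, a nuclear receptor of the naive state, lay between 169.4 and 1366, and Tbx3, a T-box factor of the naive state, between 2.45 and 1758. Both were lowest on the alike pair. Nanog did not follow them: it read 895.8 and 962.1 on the alike pair, and its correlation with the index, of which it is a part, was 0.26. Pou5f1, which both naive and primed cells express, was highest on the alike pair, at 3044 and 3211, while Sox2 was lowest there, at 1510 and 1706. The correlation with the index was -0.40 for Pou5f1 and 0.90 for Sox2.

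Pou3f1 and Pim2 followed the falling index most closely of the 8. Pou3f1 correlated with it at r = -0.975 (exact permutation p = 9.369e-05, adjusted p = 0.0251; rho = -0.967, exact permutation p = 1.653e-04, adjusted p = 0.0374; n = 9 arrays). Pim2 correlated with it at r = -0.971 (exact permutation p = 1.984e-04, adjusted p = 0.0251; rho = -0.967, exact permutation p = 1.653e-04, adjusted p = 0.0374). P-values were adjusted over the 13345 genes set against the index. Counted from the most negative r, Pou3f1 ranked 3 and Pim2 ranked 10 among these genes.

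Fgf5 had r = -0.918 (exact permutation p = 0.00143, adjusted p = 0.0306; rho = -0.833, exact permutation p = 0.00827, adjusted p = 0.0833). Sall2 had r = -0.864 (exact permutation p = 0.00166, adjusted p = 0.0324; rho = -0.817, exact permutation p = 0.0108, adjusted p = 0.0934). By Pearson's r these 4 genes of the 8 passed an adjusted p of 0.05, as did 10.9% of the 13345 genes, and the same 4 had r at or below -0.8, as did 8.12%. By Spearman's rho, Pou3f1 and Pim2 passed and Fgf5 and Sall2 did not.

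Zic2 had r = -0.781 (exact permutation p = 0.0101, adjusted p = 0.0639; rho = -0.85, exact permutation p = 0.00607, adjusted p = 0.0729). Sox3 had r = -0.689 (exact permutation p = 0.0462, adjusted p = 0.141; rho = -0.567, exact permutation p = 0.121, adjusted p = 0.278). With these 2, 6 of the 8 had an unadjusted p under 0.05 for r, against 34.1% of all genes. Otx2 had r = -0.614 (exact permutation p = 0.0798, adjusted p = 0.194; rho = -0.4, exact permutation p = 0.291, adjusted p = 0.470). Foxd3 had the opposite sign, r = 0.34 (exact permutation p = 0.394, adjusted p = 0.553; rho = 0.45, exact permutation p = 0.230, adjusted p = 0.407).

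Without the 2 arrays farthest from the median of the index, LIF replicate 1 and no LIF replicate 1, r over 7 arrays was -0.962 for Pou3f1, -0.957 for Pim2, -0.863 for Fgf5, -0.823 for Sall2, -0.737 for Zic2, -0.54 for Otx2, -0.514 for Sox3 and 0.335 for Foxd3. Of the 13345 genes 0 then had an adjusted p under 0.05, with 1735 at an unadjusted p under 0.05, so no call after adjustment was left over these 7 arrays. The 4 calls also ended without DETA/NO replicate 3, no LIF replicate 1, LIF replicate 1 or LIF replicate 3 alone, where r stayed between -0.99 and -0.96 for Pou3f1 and Pim2 and between -0.93 and -0.83 for Fgf5 and Sall2. Those of Fgf5 and Sall2 ended without no LIF replicate 2 or LIF replicate 2 too, and that of Sall2 without no LIF replicate 3. By r, Pou3f1 and Pim2 kept an adjusted p under 0.05 without any 1 of the other 5 arrays. By rho they did not without DETA/NO replicate 1 (exact permutation, adjusted p = 0.0654 for both). Without no LIF replicate 2 they did not either (exact permutation of rho, adjusted p = 0.0736 for Pou3f1 and 0.0810 for Pim2). Without the alike pair r was -0.951 for Pim2, -0.939 for Pou3f1, -0.828 for Sall2 and -0.789 for Fgf5, but -0.157 for Sox3 and -0.242 for Otx2. Foxd3, with the opposite sign, had r = 0.682 over these 7 arrays (exact permutation p = 0.07063; Spearman rho = 0.786, exact permutation p = 0.04802; adjusted p = 0.3938 and 0.3657). The relation of Sox3 to the index thus rests on that pair.

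Within the 6 dimmer arrays, r was -0.992 for Otx2, -0.99 for Pou3f1, -0.967 for Fgf5, -0.964 for Pim2, -0.93 for Zic2, -0.919 for Sall2, -0.634 for Sox3 and -0.078 for Foxd3. The 3 brighter arrays are too few for a value of their own. For Otx2, rho was -1.0 within the dimmer arrays and -0.4 over all 9. On the 3 brighter arrays Otx2 read 625.6 and 205.4 with DETA/NO, at replicates 1 and 2, and 217.4 with LIF, at replicate 1. Without DETA/NO replicate 1 alone, Otx2 had r = -0.85 and rho = -0.714.

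**Figure D3:**
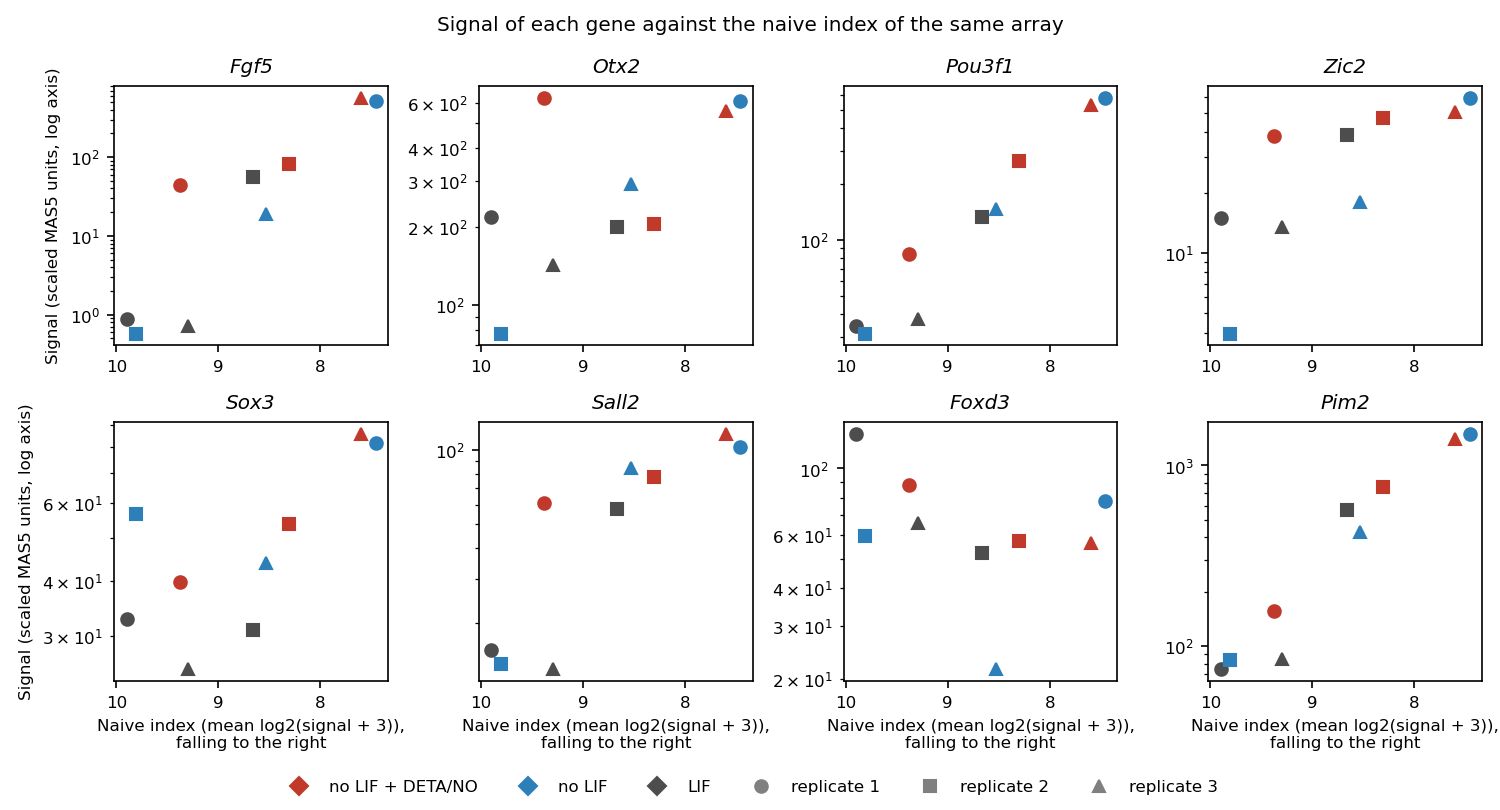
Signal of each gene (scaled MAS5 units, log axis) against the naive index of the same array, with the index falling to the right, for the 9 arrays coloured by group. Pou3f1 and Pim2 lie on a nearly single line across all groups, Otx2 has DETA/NO replicate 1 far above the other arrays of high index, and Foxd3 shows no such line.

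The order in which the genes stood high was described by the midpoint of each gene. It lies halfway between the gene's lowest and highest log2(signal + 3) over the 9 arrays. All 9 arrays are from 7 days of culture, so the order is one across cultures and not in time. With falling index, Foxd3 was above its midpoint on the first array, LIF replicate 1, and on 7 arrays in all. Sox3 was first above its midpoint on no LIF replicate 2, at an index of 9.81. Fgf5, Otx2, Sall2 and Zic2 were first above theirs on DETA/NO replicate 1, at 9.38, and all 4 were below it again on the next array, LIF replicate 3. Pim2 followed on LIF replicate 2, at 8.66, and Pou3f1 on no LIF replicate 3, at 8.53. From LIF replicate 2 on, Pim2, Sall2 and Zic2 were above their midpoints on every array of lower index. Pou3f1 was so from no LIF replicate 3 on. Fgf5 was above its midpoint on LIF replicate 2 but below it on no LIF replicate 3. Otx2 was below its midpoint on LIF replicate 2 and DETA/NO replicate 2.

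These places rest on single arrays, and several were close. Fgf5 read 44.1 on DETA/NO replicate 1, against a midpoint of 42.2. Zic2 read 17.91 on no LIF replicate 3, just above its midpoint of 17.87. Pou3f1 read 133.1 on LIF replicate 2, just under its midpoint of 138.6, so it and Pim2 cannot be put in an order. Otx2 read 217.4 on LIF replicate 1, just under its midpoint of 222.0. DETA/NO replicate 1 alone sets the place of Fgf5, Otx2, Sall2 and Zic2 at a high index. The midpoint of Fgf5 also depends on the pseudocount of 3, since its lowest signal was 0.576. Midpoints were computed with that pseudocount only, so the place of Fgf5 in the order is not firm. On that array Klf4 read 1368 and Tbx3 read 723.0, while Pou3f1 read 83.8 and Pim2 157.4, both below their midpoints. It is also 1 of the 3 brighter arrays, whose dim signals are raised. The part of that in these places was not tested.

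On the 2 arrays of lowest index, the alike pair, 6 genes had their 2 highest signals. They were Fgf5, Pou3f1, Sox3, Sall2, Zic2 and Pim2. Otx2 had 1 of its 2 highest there, and Foxd3 had neither. The share of all genes with their 2 highest signals on this pair is not given here. The count is thus a description of these genes and not a trait particular to them.

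**Figure D4:**
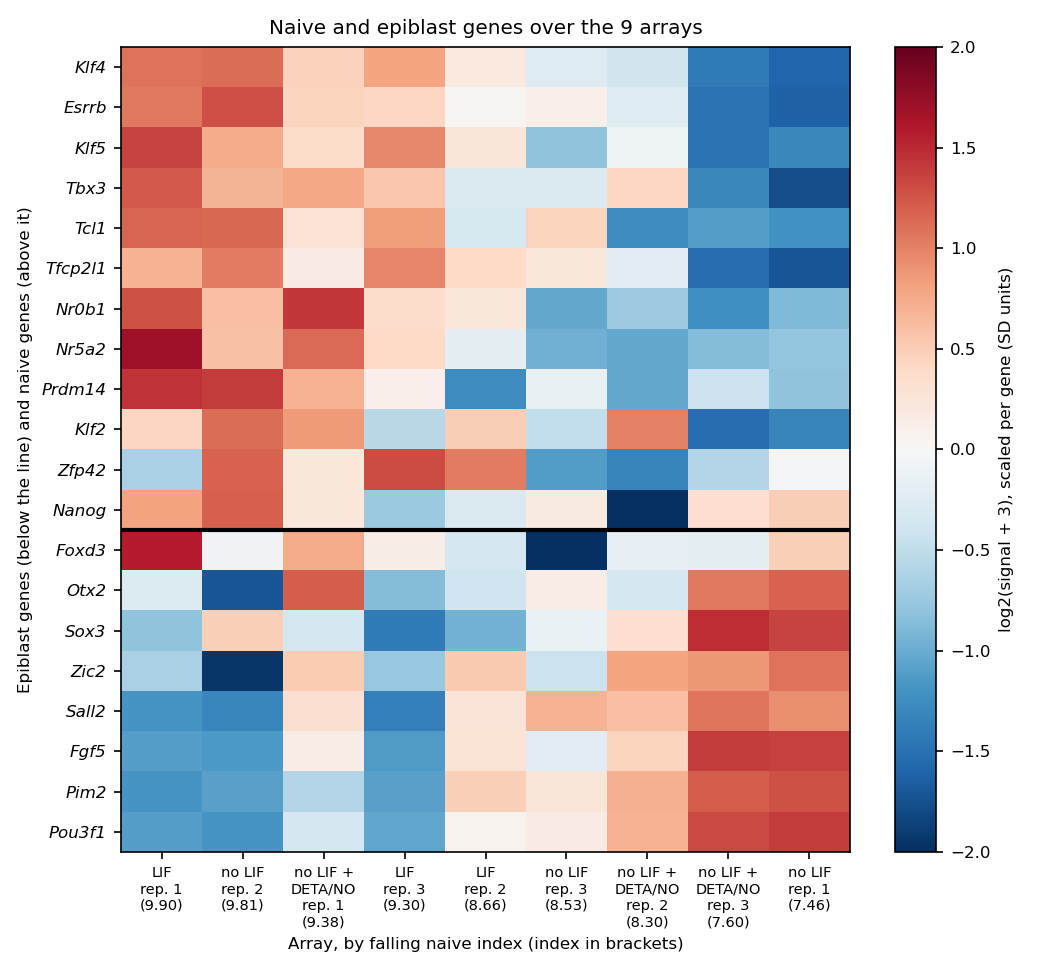
log2(signal + 3) of 12 naive genes (above the line) and the 8 epiblast genes (below it), each scaled to mean 0 and SD 1 over the 9 arrays, with arrays ordered by falling naive index (in brackets). Klf4 and Esrrb run from red to blue and Pou3f1 and Pim2 from blue to red, while Nanog and Zfp42 among the naive genes and Foxd3 among the epiblast genes do not follow the order.

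A further list of epiblast genes was read beside the 8. Of the 35 symbols listed, 33 have a probe set and 32 were tested, and 0 passed in each of the 3 comparisons. Without LIF against LIF 22 of 32 were higher, with a median log2 difference of 0.21. With DETA/NO against no LIF 25 of 32 were higher, with a median of 0.52, and against LIF 25 of 32, with a median of 0.80. Against the index 21 of 32 had a negative r, and 6 had r at or below -0.8, against 8.12% of all genes. They were Wnt8a at -0.95, Dnmt3b at -0.93, Lef1 at -0.91, Cdh2 at -0.88, Eomes at -0.85 and Fgf8 at -0.84. Rbpj, the nuclear partner of Notch, had r = 0.86 and was the 1 gene of the list at or above 0.8.

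Of its 6 genes with the highest mean signal, Dnmt3b, the de novo DNA methyltransferase of the epiblast, was the 1 that followed the same arrays as Pou3f1 and Pim2. It read 1212, 3570 and 3659 with DETA/NO, 4360, 570.2 and 1915 without LIF, and 255.4, 2062 and 1099 with LIF. The other 5 had a positive r. It was 0.86 for Rbpj, 0.68 for Etv5, an ETS factor downstream of FGF signalling, 0.62 for Utf1, a chromatin factor of pluripotent cells, 0.44 for Tdgf1, the Nodal co-receptor, and 0.36 for Jarid2, a partner of Polycomb.

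Markers of other cell types were read on the same arrays. The 8 primitive streak markers had summed signals of 272.5 to 563.8 with DETA/NO, 72.7 to 551.7 without LIF and 111.6 to 348.5 with LIF. The alike pair had the highest sums. Of the 8, 4 had r at or below -0.8 with the index, against 8.12% of all genes: Evx1, Gsc, Mixl1 and Mesp1. Mixl1, a homeobox gene of the streak, read 13.9, 115.7 and 210.1 with DETA/NO, 228.5, 3.56 and 4.37 without LIF, and 3.84, 102.9 and 15.1 with LIF. The other genes of highest signal on that list were Fgf17, with r = -0.36, and Evx1, with r = -0.89. Tbx6, another of the 8, had r = 0.56. The part of the streak markers in the result was not tested.

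Neural progenitor markers, of which 10 of 12 have a probe set and 4 lay below the array median on all arrays, summed to 240.7 to 311.3 with DETA/NO, 136.1 to 212.7 without LIF and 197.5 to 253.7 with LIF. Nes, Tubb3 and Sox1 had the highest mean signals among them, with r of -0.86, 0.43 and 0.78 with the index. Primitive endoderm markers, 10 genes led by Sparc, Lamb1 and Col4a1, summed to 2352 to 4994, 2393 to 6961 and 4907 to 16090 in the same order of groups, and fibroblast markers, 8 genes led by Fn1, Thy1 and Col1a2, to 1427 to 5812, 1287 to 4910 and 3898 to 6779. Both lists were lowest on the alike pair, where Fgf5, Pou3f1, Sox3, Sall2, Zic2 and Pim2 were highest. Lama1 of the primitive endoderm list had r = 0.86 with the index and Fn1 had r = 0.84. Of the 13345 genes, 1040 had r at or above 0.8. Of the 8 fibroblast markers, 4 lay below the array median on all arrays, and Fn1 made up most of the sum. On no LIF replicate 1 Fn1 read 1216 of 1287, and on DETA/NO replicate 3 it read 1359 of 1427. Trophoblast markers, 7 genes led by Tfap2c, Krt7 and Cdx2, summed to 312.9 to 1093, 275.7 to 832.5 and 211.8 to 1310 and were not highest there. The part of these markers in the results was not tested.

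The genes whose pattern over the 9 arrays was most like the mean of the 8, each scaled to mean 0 and SD 1, were Slc6a15 (r = 0.979), Sertad4 (0.971), Zfp799 (0.970), Rhobtb3 (0.969) and Qser1 (0.969). Those most opposed were Saa3 (-0.990), Parvb (-0.988), Ypel2 (-0.979), Tmem38b (-0.979) and Mymx (-0.973). For Fgf5 alone the most alike were Sertad4 (0.980), Ikzf4 (0.975) and Vrtn (0.971). These values are descriptions over 9 arrays that share the same cultures and scaling.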

How the data were processed

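Gene expression was measured on 9 Affymetrix arrays, 3 per group. The deposited values are linear signal intensities, made with GeneChip Operating System 1.4.0.036 and global scaling per the labels, and with MAS5 per the submitters' processing notes. Detection calls were not used here.

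Values were turned to log2(signal + 3). The 64 control probe sets were left out, and probe sets were tested that reached the 40th percentile on 3 or more of the 9 arrays. All 3 comparisons came from 1 fit in limma 3.58.1 (R 4.3.3; lmFit, eBayes with a trend; group only), two-sided, adjusted by Benjamini-Hochberg over 29811 probe sets, threshold 0.05. The fit was tested on simulated data. A fold change on this scale understates that of dim probe sets. The number of arrays and their spread limit the precision.

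The naive genes are Klf2, Klf4, Klf5, Esrrb, Tbx3, Nanog, Tfcp2l1, Zfp42, Nr5a2, Prdm14, Nr0b1 and Tcl1. Correlations used two-sided exact permutation tests over 362880 orderings (numpy 2.4.6, checked against scipy 1.17.1). They were adjusted over 13345 genes, the naive list left out, in place of the adjustment over the 8 genes first planned. The genes and lists, and several alternatives, were chosen with earlier results of these data known. Named are the 8 genes, Socs3, Klf4, Esrrb, Tbx3, Nanog, Pou5f1 and Sox2, the 6 (other epiblast) or 3 (other lists) genes of highest mean signal where none is called, and the most alike genes. The other genes with r at or below -0.8 or at or above 0.8 were named after their values were seen. Alternatives were the pseudocount, filter, normalization, variance trend, replicate block, brightness block, probe set and arrays left out. Replicate numbers did not pair the samples.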

Additional observations from a re-analysis of the deposited data

How the results depend on the processing

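The count of probe sets that passed the limma test was 0 in 63 of 63 recomputations over the 3 comparisons. Those at an unadjusted p under 0.05 were 459, 1498 and 578 for no LIF minus LIF, DETA/NO minus no LIF and DETA/NO minus LIF. Without both replicate 2 arrays they were 2444, 1016 and 1377, without the alike pair 788, 3564 and 1185, and with brightness as a block 294, 676 and 1653. The passage number did not pair the arrays: the deviations of arrays with the same number correlated at -0.597 to 0.65, with 3 of 9 pairs over 0.1. With the replicate block 0 probe sets passed, 493, 1602 and 471 had an unadjusted p under 0.05, and the medians of the 8 genes were 0.98, 0.67 and 1.44, as without it.

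Of 528 recomputed differences of the 8 genes, 26 changed sign and none passed the test. For no LIF minus LIF, Zic2 was 0.01 with a pseudocount of 16, 0.09 after quantile normalization, 0.10 after median centring and 1.08 without both replicate 2 arrays, and without the alike pair Fgf5 was -0.10 and Otx2 -0.27. For DETA/NO minus no LIF, Sox3 was 0.17 and Foxd3 -0.01 with the brightness block, and Sox3 was 0.11 as the mean of its probe sets. In that comparison, without both replicate 2 arrays, Otx2 was -0.02, Pou3f1 -0.35, Sall2 -0.18 and Pim2 -0.54. Leaving out 1 array at a time gave, for no LIF minus LIF, ranges of -0.93 to 0.65 for Zic2, -0.10 to 3.50 for Fgf5 and -0.27 to 1.19 for Otx2. For DETA/NO minus no LIF it gave -0.33 to 0.20 for Sox3, -0.54 to 1.52 for Pim2, -0.02 to 1.44 for Otx2, -0.35 to 1.69 for Pou3f1, -0.18 to 1.16 for Sall2 and -0.05 to 0.81 for Foxd3. For DETA/NO minus LIF, Foxd3 lay between -0.47 and 0.16. The median of the 8 genes lay between 0.09 and 1.53, -0.05 and 1.48, and 1.07 and 1.90 in the 3 comparisons. The cause of these changes was not tested.

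For the correlations with the naive index, leaving out each array in turn, leaving out the alike pair and a pseudocount of 1 were added after seeing the data. With a pseudocount of 1 or 16, Klf4 alone as the naive measure or quantile normalization, Pou3f1 and Pim2 kept an adjusted p under 0.05. They did so by r and by rho. Fgf5 and Sall2 kept it by r in each of these settings. By rho Fgf5 passed in none of them, and Sall2 passed only after quantile normalization. Zic2 passed after quantile normalization, at r = -0.85, and without DETA/NO replicate 1, at -0.88. With 7 or 6 arrays none of the 13345 genes passed after adjustment (1735, 1881 and 3196 at an unadjusted p under 0.05), which fewer orderings make harder. There r without the 2 farthest arrays was -0.96 for Pou3f1, -0.96 for Pim2, -0.86 for Fgf5 and -0.82 for Sall2. Within the 6 dimmer arrays it was -0.99, -0.96, -0.97 and -0.92, with Foxd3 turned to -0.08, and without the alike pair -0.94, -0.95, -0.79 and -0.83, with Foxd3 at 0.68. Leaving out 1 array gave ranges of -0.99 to -0.97 for Pou3f1, -0.99 to -0.96 for Pim2, -0.97 to -0.89 for Fgf5, -0.93 to -0.83 for Sall2, -0.88 to -0.73 for Zic2, -0.86 to -0.57 for Sox3, -0.85 to -0.48 for Otx2 and 0.09 to 0.54 for Foxd3. No gene passed without DETA/NO replicate 3, no LIF replicate 1, LIF replicate 1 or LIF replicate 3 (3003, 3002, 3206 and 4168 at an unadjusted p under 0.05). With 3 arrays per group and signals of Fgf5 under 1 on 3 arrays, differences at the dim end are imprecise.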
